A study of Sus scrofa with 43 samples.

Results

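LYZ, LTF, REG3G, S100A8, S100A9 and S100A12, 6 genes for proteins that act against microbes at the gut surface, were followed in jejunal mucosa of piglets from the first day of life to 28 d postweaning. They were taken from 35884 transcript accessions on a pig microarray as the spots assigned to a RefSeq transcript of these symbols, which gave 9 probes, and every member had at least 1. LYZ (NM_214392) had 3 probes, LTF (NM_214362) had 2, and REG3G (NM_001144847), S100A8 (NM_001160271), S100A9 (NM_001177906) and S100A12 (NM_001160272) had 1 each. The question was how these genes ran over the 5 ages, whether they differed between piglets of treated and untreated sows, and which single piglets stood apart.

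Each of the 43 arrays held RNA from the jejunal scrapings of 1 male piglet. Sows of the amoxicillin arm received the antibiotic at 15 mg/kg every day during the week before farrowing, and sows of the control arm received none. The treatment of the sows ended at farrowing. Control groups held 6 piglets at day 1, 6 at day 7, 3 at weaning, 5 at 4 d postweaning and 3 at 28 d postweaning, and each amoxicillin group held 4. By the study's count of piglets every array came from a different animal, so ages were compared across animals, and piglets of different ages can share a sow. In the control group of day 1, 2 piglets are labelled 19 and 19B, and the labels do not say whether these share a sow. The sows were kept in several batches whose link to the arrays is not given in the sources used here, so batch was not tested. All values below are log2 intensities after background correction and quantile normalization, and a difference of 1 is a 2-fold difference. Levels were compared within a gene and never between genes, since probes differ in brightness for the same amount of RNA.

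Lysozyme, the product of LYZ, cuts the cell wall of bacteria and is made by Paneth cells, by macrophages and by mucosal glands. REG3G encodes a secreted lectin of the intestinal epithelium that binds the cell wall of Gram-positive bacteria. Lactoferrin, encoded by LTF, binds iron and is stored in neutrophil granules and secreted by glandular epithelium, the mammary gland included. S100A8 and S100A9 pair to form calprotectin, a protein of neutrophils and monocytes that withholds zinc and manganese from microbes, and S100A12 is a related protein of the same cells. In the RefSeq table of the Sscrofa11.1 assembly the 3 S100 genes are neighbours, with S100A12 the only protein-coding gene between S100A8 and S100A9.

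Signal strength divided the members. LYZ and REG3G were well above background on all 43 arrays and were so bright that at least 1 LYZ probe was saturated on 13 arrays and the REG3G probe on 14. A saturated spot gives only a lower limit of the level, so a difference in which only the brighter group is saturated is a lower limit too. S100A8 and S100A9 were well above background on 32 arrays each and S100A12 on 35. LTF counted as well above background on all 43, but through 1 probe only. The other LTF probe reached that level on 10 arrays, and the correlation between both probes over the 43 arrays was 0.48, against 0.96 to 0.99 among the 3 LYZ probes. The study's filter sets a cut at 1.1 times the brightest dark control spot, without naming a scale. Applied here on the log2 scale, the cut was 7.68, above the brightest dark spot at 6.98. Only LYZ and REG3G exceeded the cut on all arrays of at least 1 group. S100A8 and S100A12 exceeded the dark spot itself on all day 1 controls, with lowest values of 7.55 and 7.64. LYZ and REG3G were tested among the 12771 genes that passed the cut. The other 4 members were tested among 20842 genes with a spot well above background on every array of at least 1 group. LTF met this in all 10 groups. S100A8 and S100A9 met it in 4 groups and S100A12 in 5, all at day 1, day 7 or 4 d postweaning, so these 3 genes entered the test through groups in which they were bright, and the fit without any filter is given beside their results.

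Features of the arrays bear on the weaning groups and on the comparison of arms. Amoxicillin piglet 8 and control piglet 7, both at weaning, carried far more signal of the B cell genes CD79A and MS4A1 than any other array, and are called rich in B cell genes below. CD79A, which encodes a chain of the B cell receptor, was at 14.67 and 14.21 in these 2 piglets and at no more than 10.33 elsewhere. MS4A1 was at 12.86 and 12.65 against at most 9.55 elsewhere. XBP1, a factor of plasma and other secretory cells on the same list, did not go with them, at no more than 14.03 on any weaning array against up to 14.52 at day 1. The summed log2 level of 7 enterocyte genes (FABP1, FABP2, SLC2A2, SLC5A1, ANPEP, APOA1 and APOA4) was 16.97 and 17.99 in the same piglets and 18.10 to 18.48 in the other 41. In tissue RNA, fewer cells of a type and less RNA per cell cannot be told apart. No slide held both arms, 3 of the 6 slides being given to each, so slide and arm cannot be told apart. An array had 15937 to 29827 spots well above background in the control arm and 16150 to 26290 in the amoxicillin arm.

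LYZ went up from day 1 to day 7, down to weaning and up again after it, by 7.03- to 8.49-fold at each turn, and the last 2 of these turns rested on few piglets. At day 1 the 6 control piglets had a lowest LYZ level of 9.38, a median of 12.71 and a highest of 13.88, and the 4 amoxicillin piglets were at 9.56, 11.55, 11.96 and 13.73. At day 7 the controls ran from 12.35 through a median of 14.91 to 15.96, and the amoxicillin piglets were at 14.56, 15.25, 15.71 and 15.99. Day 7 values thus overlapped the highest of day 1 in the control arm only, where 2 of the 6 piglets lay below the day 1 maximum, and every amoxicillin piglet of day 7 lay above every amoxicillin piglet of day 1. At weaning the 3 controls were at 10.16, 10.64 and 15.48 and the amoxicillin piglets at 10.31, 11.48, 12.09 and 14.79, so 1 piglet in each arm was high and the others were near the day 1 level.

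At 4 d postweaning LYZ was high in all 9 piglets. The controls were at 13.72, 14.82, 15.62, 15.65 and 15.98 and the amoxicillin piglets at 13.39, 14.77, 15.03 and 16.00. At 28 d postweaning the controls were at 11.19, 15.82 and 15.88 and the amoxicillin piglets at 14.74, 15.30, 15.93 and 16.00, with control piglet 13 alone at a low level. LYZ had a saturated probe on 5 of 10 arrays at day 7, 5 of 9 at 4 d postweaning and 3 of 7 at 28 d postweaning, and on none at day 1 or weaning.

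**Figure D1:**
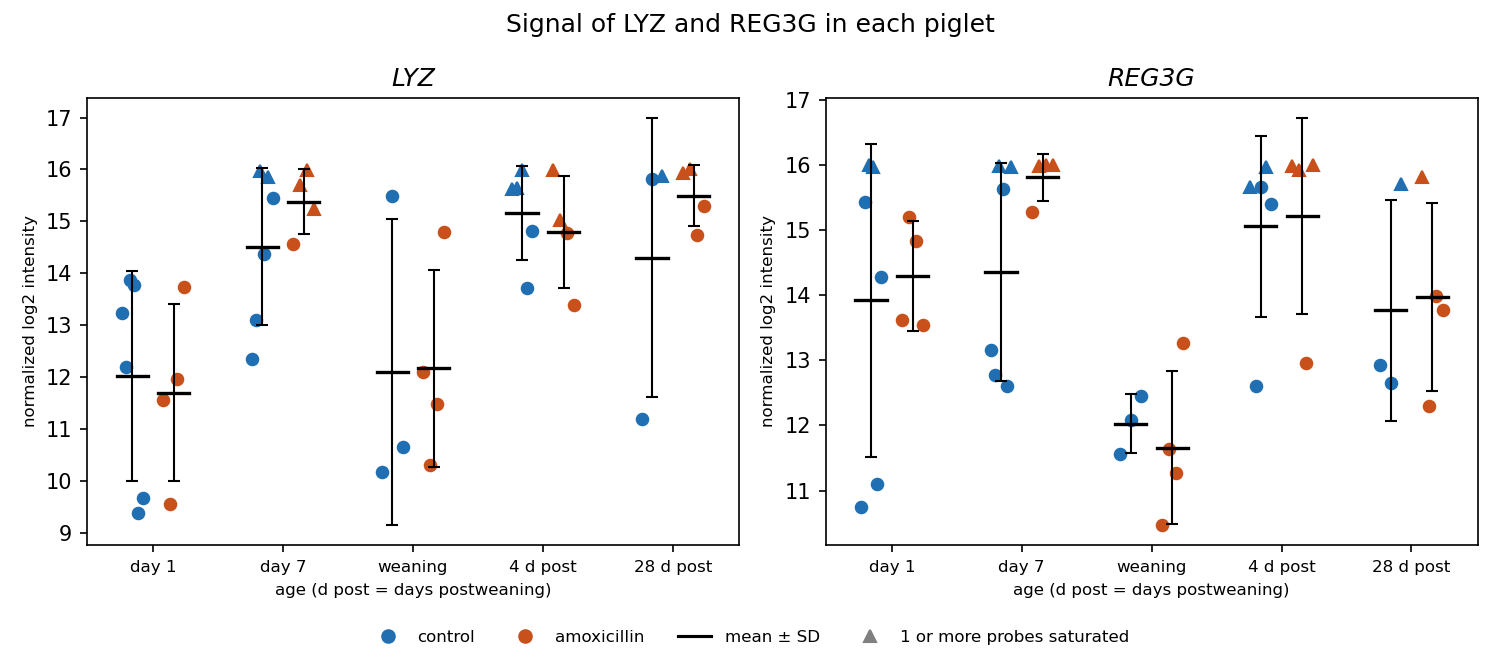
Normalized log2 intensity of LYZ (left) and REG3G (right) in each piglet by age, control in blue and amoxicillin in orange, with group mean ± SD in black. Triangles mark arrays with a saturated probe. Both genes sit low at weaning in most piglets, and no saturated array falls there.

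Averaged over both arms, LYZ rose from day 1 to day 7 by 3.09 (SE 0.72, 8.49-fold, adjusted p = 0.00907). It then fell by 2.81 to weaning (SE 0.79, 7.03-fold, adjusted p = 0.0176) and rose by 2.85 to 4 d postweaning (SE 0.80, 7.19-fold, adjusted p = 0.0164). From 4 d to 28 d postweaning the difference was -0.08 (SE 0.80, adjusted p = 0.968), with a 95% interval from -1.71 to 1.55. Of the 12771 genes, 2.01% were higher at day 7 than at day 1, 5.78% were lower at weaning than at day 7, 6.19% were higher at 4 d postweaning than at weaning, and 5.43% changed in either direction up to 28 d. Ordered by the mean of the arms, LYZ stood at 14.98 at 4 d postweaning, 14.94 at day 7, 14.89 at 28 d postweaning, 12.13 at weaning and 11.86 at day 1. The first 3 of these lie within the spread between piglets, as do the last 2.

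The 2 piglets rich in B cell genes were also the lowest for LYZ in their groups. Without both, the fall of LYZ to weaning was -2.02 (adjusted p = 0.146) and the return 2.05 (adjusted p = 0.0929), and neither passed the test, while the rise to day 7 did (adjusted p = 0.0052). Leaving out control piglet 7 or control piglet 25 of the weaning group alone was enough to lose both calls, the latter not rich in B cell genes, and leaving out amoxicillin piglet 8 alone was not. Among the 7 weaning piglets the level followed no strict order with the B cell genes, since amoxicillin piglet 7 and control piglet 25 were at 12.09 and 10.64 with CD79A at 6.83 and 7.63. The part of B cells in the LYZ level was not tested.

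**Figure D2:**
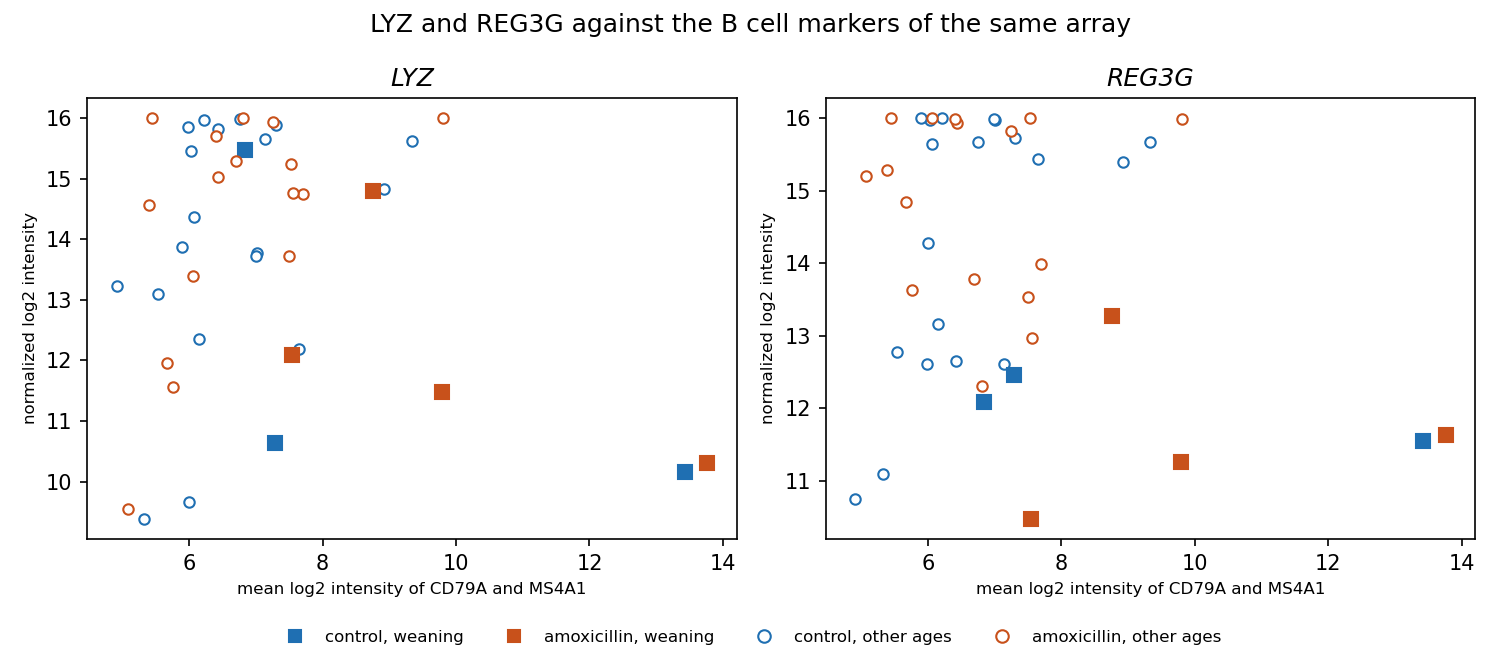
Normalized log2 intensity of LYZ (left) and REG3G (right) on the vertical axis against the mean log2 intensity of CD79A and MS4A1 in the same array, with filled squares for weaning and open circles for other ages. The 2 weaning piglets on the far right have B cell means of 13.43 and 13.76, and the other weaning piglets are also low for REG3G, at B cell means of at most 9.79; 1 array without a CD79A value is left out.

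REG3G shared the dip at weaning with LYZ but not a called rise in the first week. At day 1 its levels in control piglets ran from 10.75 through a median of 14.86 to 16.00 and in amoxicillin piglets were 13.54, 13.62, 14.84 and 15.20. At day 7 the controls ran from 12.60 through 14.40 to 16.00, and the amoxicillin piglets were at 15.28, 15.98, 16.00 and 16.00. The control groups of both ages were widely spread, and 5 of the 10 arrays at day 7 were saturated.

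At weaning REG3G was at 11.55, 12.08 and 12.45 in controls and at 10.47, 11.27, 11.63 and 13.27 in amoxicillin piglets. All 3 controls lay below all 6 controls of day 7, and all 4 amoxicillin piglets lay below all 4 of day 7. At 4 d postweaning the levels were 12.61, 15.40, 15.66, 15.66 and 15.98 in controls and 12.97, 15.93, 15.99 and 16.00 in amoxicillin piglets. Every control of that age was above every control at weaning, and 1 amoxicillin piglet at 12.97 fell below the highest of weaning. At 28 d postweaning the controls were at 12.66, 12.93 and 15.72 and the amoxicillin piglets at 12.30, 13.78, 13.99 and 15.82, with a mean between those of the 2 preceding ages in both arms.

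REG3G fell by 3.24 from day 7 to weaning (SE 0.72, 9.46-fold, adjusted p = 0.00366) and rose by 3.30 from weaning to 4 d postweaning (SE 0.73, 9.82-fold, adjusted p = 0.00316). Its first step, from day 1 to day 7, was 0.97 (SE 0.66, adjusted p = 0.589, 95% interval -0.36 to 2.31), and its last step was -1.27 (SE 0.73, adjusted p = 0.297, 95% interval -2.76 to 0.22). Without the 2 weaning piglets rich in B cell genes the fall was -3.12 (adjusted p = 0.0205) and the return 3.17 (adjusted p = 0.00744), so both calls remained. They also remained without any single array. The mean over both arms was 15.14 at 4 d postweaning, 15.09 at day 7, 14.11 at day 1, 13.87 at 28 d postweaning and 11.84 at weaning. The first 2 ages are not ordered by these data, since 5 of 9 and 5 of 10 arrays were saturated, and of the steps between successive ages only those into and out of weaning passed.

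Tested within an arm, LYZ differed between the ages in control piglets (adjusted p = 0.031) and in amoxicillin piglets (adjusted p = 0.00651), and REG3G in amoxicillin piglets (adjusted p = 0.00977) but not past the threshold in control piglets (adjusted p = 0.187). Of all genes tested with them, 30.5% differed between ages in the control arm and 47.0% in the amoxicillin arm. The difference between arms in this course was tested by itself and did not pass for LYZ (adjusted p = 0.929) or REG3G (adjusted p = 0.912), whereas 6.18% of genes passed. The control call of LYZ was lost without control piglet 19B or 20 at day 1, 7 or 25 at weaning, or 29 or 30 at 4 d postweaning (adjusted p up to 0.0794), and without the filter on dim genes (adjusted p = 0.0537).

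Slides held some ages together, so steps could also be read inside a slide. From day 7 to weaning LYZ differed by -3.32 on the control slide with 4 and 3 such piglets, and by -3.08 on the amoxicillin slide with 1 and 4. REG3G differed by -3.02 and -4.34 on the same slides, with no overlap on either. From weaning to 4 d postweaning LYZ differed by 3.52 on the control slide and 3.09 on the amoxicillin slide and REG3G by 3.63 and 3.30, with a single control array at 4 d. The day 1 to day 7 step of LYZ was 0.70 on the control slide that held 6 and 2 piglets and 3.72 on the amoxicillin slide. With the slide as a fixed block both REG3G steps around weaning still passed, while LYZ gave 2.21 (adjusted p = 0.37), -3.20 (adjusted p = 0.0792) and 3.31 (adjusted p = 0.07) for its 3 called steps and lost all of them.

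S100A8 was lower at weaning than at day 7. S100A12 and S100A9 had lower means there too, but S100A12 passed the test only with the filter that had let it in through other ages, and S100A9 did not pass. S100A8 in controls ran from 7.55 through a median of 7.85 to 9.29 at day 1 and from 7.02 through 7.44 to 9.54 at day 7. In amoxicillin piglets it was at 6.41, 7.49, 8.20 and 10.27 at day 1 and at 6.68, 7.34, 7.78 and 8.32 at day 7. At weaning it was at 5.05, 6.48 and 6.56 in controls and at 4.78, 5.58, 6.71 and 6.94 in amoxicillin piglets. All weaning controls thus lay below all controls of both earlier ages, and in the amoxicillin arm 2 weaning piglets overlapped the lowest of day 7.

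After weaning S100A8 was at 6.13, 6.37, 6.77, 7.74 and 8.60 in controls and at 5.78, 6.09, 6.65 and 6.95 in amoxicillin piglets at 4 d, and at 5.56, 5.57 and 7.16 in controls and 5.95, 6.39, 6.81 and 8.04 in amoxicillin piglets at 28 d. It was well above background on 9 of 10 arrays at day 1, 10 of 10 at day 7, 3 of 7 at weaning, 7 of 9 at 4 d postweaning and 3 of 7 at 28 d postweaning. Low values at the later ages are therefore near the limit of what the array resolves, and the true fall may be larger than measured.

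The fall of S100A8 from day 7 to weaning was 1.62 (SE 0.45, 3.07-fold, adjusted p = 0.0216) and that of S100A12 1.42 (SE 0.43, 2.67-fold, adjusted p = 0.0338), where 3.94% of the 20842 genes were lower. S100A9 gave -0.75 (SE 0.41, adjusted p = 0.287). Over all genes without a filter S100A8 still passed (adjusted p = 0.0363) and S100A12 did not (adjusted p = 0.0559), nor did S100A12 with an offset of 50 (adjusted p = 0.06). Without the 2 weaning piglets rich in B cell genes S100A8 gave -1.91 (adjusted p = 0.0282) and S100A12 -1.59 (adjusted p = 0.0564). With the slide as a fixed block they gave -1.27 (adjusted p = 0.279) and -1.81 (adjusted p = 0.066). Leaving out control piglet 25 of weaning or amoxicillin piglet 21 of day 7 also ended the call of S100A8, and 7 arrays ended that of S100A12 when left out singly.

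S100A12 at weaning spanned 5.84 to 6.70 in controls and 5.18 to 7.24 in amoxicillin piglets, against 7.19 to 9.25 and 6.99 to 8.30 at day 7. The control groups did not overlap, and the amoxicillin groups overlapped by 1 weaning piglet. S100A9 spanned 5.34 to 6.61 in controls and 5.93 to 7.46 in amoxicillin piglets at weaning, against 6.33 to 8.54 and 6.67 to 8.14 at day 7, and overlapped in both arms. None of the 3 S100 genes, nor LTF, passed the test between day 1 and day 7 (background 2.40%), between weaning and 4 d postweaning (9.11%) or between 4 d and 28 d postweaning (3.89%). The nearest was S100A12 from weaning to 4 d postweaning, at 0.95 (SE 0.43, adjusted p = 0.164). Within an arm, S100A8 differed between ages in control (adjusted p = 0.0218) and amoxicillin piglets (adjusted p = 0.0364) and S100A12 in control piglets (adjusted p = 0.0465) but not in amoxicillin piglets (adjusted p = 0.0795), where 24.8% and 44.4% of genes did. Without a filter S100A8 passed in both arms (adjusted p = 0.0345 and 0.0449) and S100A12 did not in control piglets (adjusted p = 0.072). None of these 3 calls was made with the slide as a random block, where S100A8 gave adjusted p = 0.118 in control and 0.273 in amoxicillin piglets and S100A12 0.11 in control piglets. With the slide as a fixed block the adjusted p was 0.524, 0.844 and 0.372. S100A8 in amoxicillin piglets was also not called with an offset of 50 (adjusted p = 0.0537) or with 75th percentile scaling of the normexp values (adjusted p = 0.0805) or of the processed signal (adjusted p = 0.0742). S100A12 lost the control call in 22 of the 43 fits that left out 1 array, and S100A8 in 3 for control and 6 for amoxicillin piglets.

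**Figure D3:**
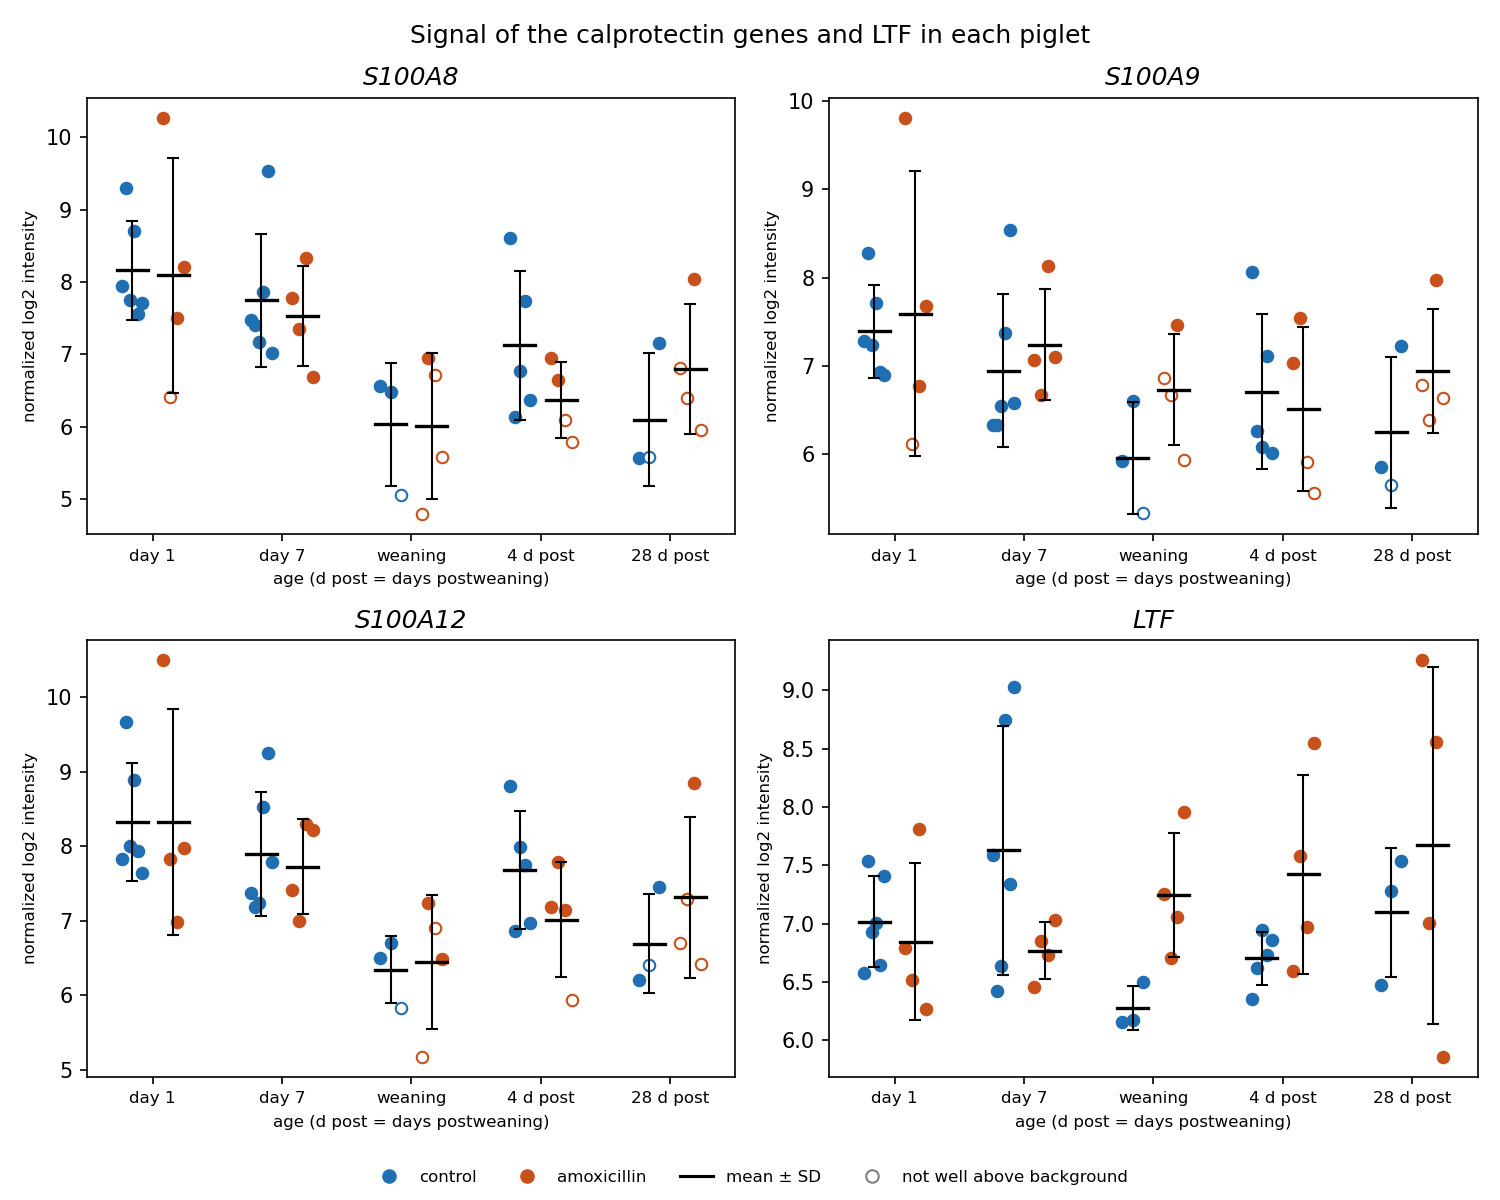
Normalized log2 intensity of S100A8, S100A9, S100A12 and LTF in each piglet by age, control in blue and amoxicillin in orange, with group mean ± SD in black; open circles are arrays on which the gene was not well above background. S100A8 and S100A12 have lower means at weaning than at day 7 in both arms, and amoxicillin piglet 2 at day 1 lies at the top of all 3 S100 genes.

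LTF, the lactoferrin gene, showed no step that passed the test, and 2 of its groups were widely spread. Controls at day 7 ran from 6.42 through a median of 7.47 to 9.03, and amoxicillin piglets at 28 d postweaning were at 5.86, 7.01, 8.56 and 9.26, a 10.6-fold range among 4 animals. Controls at weaning were at 6.16, 6.18 and 6.50, and amoxicillin piglets of that age, at 6.70, 7.06, 7.26 and 7.96, were all above them. That difference was 0.97 (SE 0.56, adjusted p = 0.312). On each of these weaning arrays only 1 of the 2 LTF probes was well above background, and no slide held both arms. The steps of the mean of both probes lay between -0.44 and 0.32, and the 2 probes taken singly gave opposite signs from weaning to 4 d postweaning, -0.33 and 0.93.

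No member differed between amoxicillin and control piglets at any age by the study's rule, an adjusted p under 0.05 with a log2 difference beyond 1.5. This held for 0 of 10 tests of LYZ and REG3G and 0 of 20 tests of the other members in limma, and no test had an unadjusted p under 0.05. Among the 12771 genes the rule was met by 0.211% at day 1, 0% at day 7 (887 genes at an unadjusted p under 0.05), 3.41% at weaning, 1.54% at 4 d postweaning and 2.13% at 28 d postweaning. Among the 20842 genes it was met by 0.854%, 0.00480%, 2.96%, 1.08% and 2.34% at the same ages.

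Differences between arms came with wide intervals. REG3G at day 7 was 1.46 higher in amoxicillin than in control piglets (SE 0.93, adjusted p = 0.835, 95% interval -0.43 to 3.34), with 3 of 4 amoxicillin and 2 of 6 control arrays saturated. LYZ at 28 d postweaning differed by 1.20 (SE 1.21, adjusted p = 0.694, 95% interval -1.25 to 3.65), where control piglet 13 alone was low. LYZ at day 7 differed by 0.86 (SE 1.02, adjusted p = 0.946, 95% interval -1.21 to 2.93) and LTF by -0.86 (SE 0.47, adjusted p = 0.79, 95% interval -1.81 to 0.09). A log2 difference of 1 in favour of the amoxicillin arm lay inside the interval of LYZ and of REG3G at every age, and 1 in favour of the control arm lay inside all of them but that of REG3G at day 7, so the arms were not shown to be alike.

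Averaged over the 5 ages, amoxicillin minus control was 0.29 (SE 0.50, adjusted p = 0.777) for LYZ and 0.37 (SE 0.45, adjusted p = 0.682) for REG3G, where 10.1% of genes passed. It was 0.25 (SE 0.23, adjusted p = 0.552) for LTF, -0.07 (SE 0.28, adjusted p = 0.91) for S100A8, 0.36 (SE 0.26, adjusted p = 0.426) for S100A9 and -0.02 (SE 0.27, adjusted p = 0.97) for S100A12, where 10.4% passed. The difference between arms did not change with age past the threshold for any of the latter 4 either (adjusted p of at least 0.298), against 7.06% of genes that passed. In limma no member had an unadjusted p under 0.05 in these 2 comparisons.

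**Figure D4:**
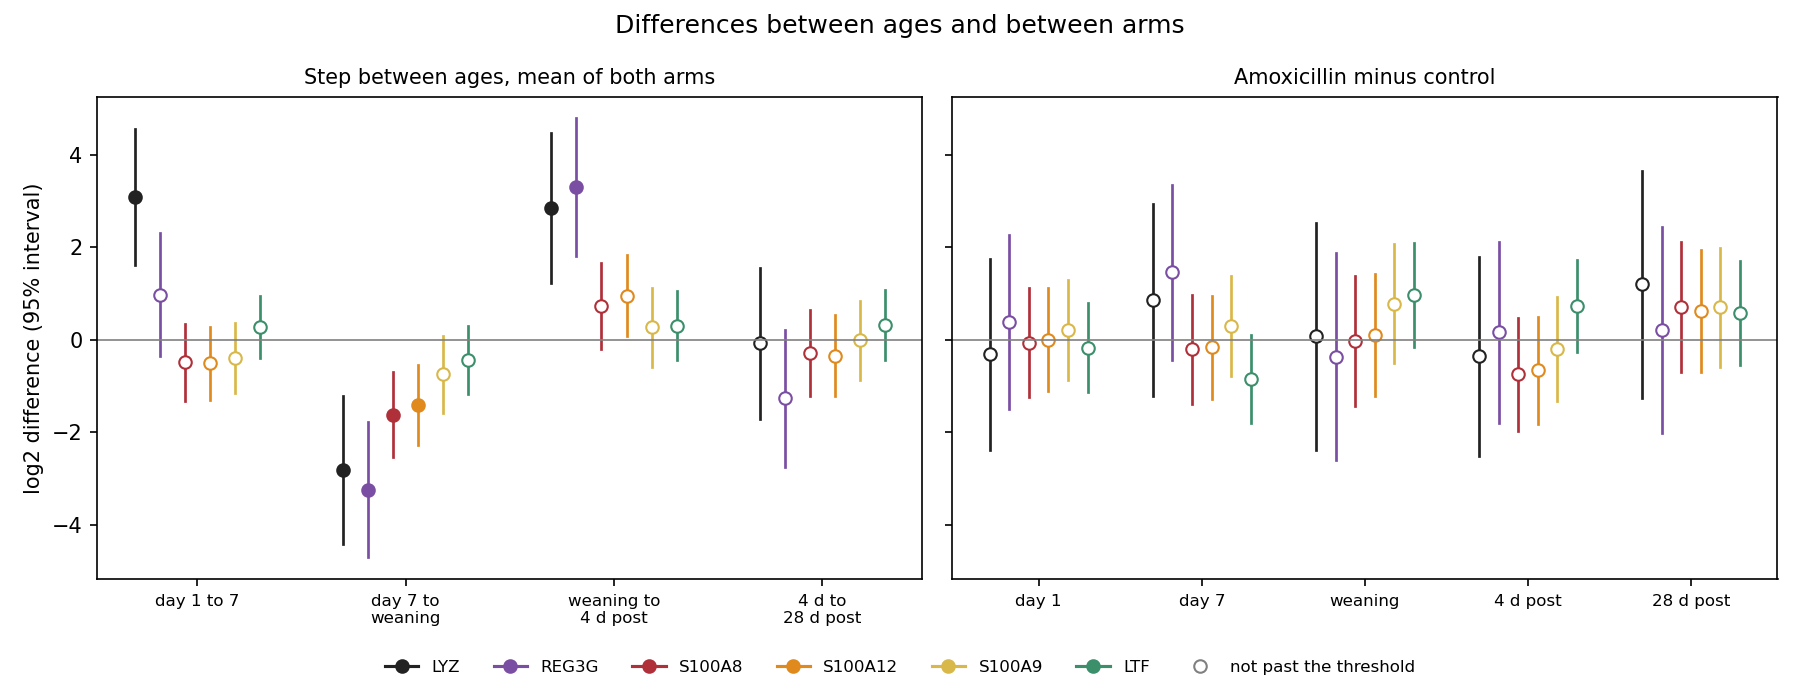
Log2 differences between successive ages as the mean of both arms (left) and between amoxicillin and control piglets at each age (right) for the 6 members, with 95% intervals; filled points passed the test. Filled points occur only on the left, 3 for LYZ, 2 for REG3G and 1 each for S100A8 and S100A12.

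Piglets of 1 group differed more in LYZ and REG3G than in nearly any other gene. The spread within groups was an SD of 1.67 for LYZ and 1.52 for REG3G, against a median of 0.53 over the 20842 genes, which placed them at the 99.7th and 99.5th percentile. S100A8 had an SD of 0.95, S100A12 of 0.89, S100A9 of 0.87 and LTF of 0.76, at percentiles from 84.2 to 94.7. LYZ spanned a 98.1-fold range over the 43 arrays and REG3G a 46.0-fold range, both limited at the top by saturation.

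The 3 S100 genes were high in the same piglets. Amoxicillin piglet 2 at day 1 had the highest level of all 43 arrays for each of them, 10.27 for S100A8, 9.81 for S100A9 and 10.50 for S100A12, while the other 3 piglets of its group reached at most 8.20, 7.68 and 7.98. Control piglet 22 at day 7 was at 9.54, 8.54 and 9.25, control piglet 17 at day 1 at 9.29, 8.28 and 9.67, and control piglet 10 at 4 d postweaning at 8.60, 8.07 and 8.81. Among these values only S100A8 in control piglet 22 stood apart from its group by Dixon's test.

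Across the 43 piglets, taken as deviations from their group means, S100A8 correlated with S100A9 (Pearson r = 0.88, Spearman rho = 0.76) and with S100A12 (r = 0.84, rho = 0.77), and S100A9 with S100A12 (r = 0.82, rho = 0.73). For all 3 pairs the permutation test within groups gave p = 1e-05 for r, the smallest that 100000 draws can give, and an adjusted p of 5e-05 over the 15 pairs of members. For rho the permutation p was 1e-05 or 2e-05, with an adjusted p of at most 0.0001. Without amoxicillin piglet 2 at day 1 and control piglet 22 at day 7, the 2 arrays farthest from the median, r was 0.83, 0.78 and 0.74. Within the 5 slides with at least 6 arrays r ran from 0.45 to 0.98, from 0.70 to 0.96 and from 0.23 to 0.96 for the 3 pairs.

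LTF and REG3G also deviated together, at r = 0.45 (permutation p = 0.0063, adjusted p = 0.024) and rho = 0.51 (permutation p = 0.003, adjusted p = 0.011). LTF is here the mean of 2 probes, 1 of them well above background on only 10 arrays, and REG3G was saturated on 14. The relation was not tested for each LTF probe alone. Without amoxicillin piglet 37 at 28 d postweaning and control piglet 23 at day 7, the 2 arrays farthest from the LTF median, r was 0.37. Within the slides r was between 0.33 and 0.58, and with 75th percentile scaling of the normexp values or of the processed signal the adjusted p was 0.0735 and 0.0855. LYZ and REG3G, which shared the dip at weaning, gave r = 0.25 (permutation p = 0.17, adjusted p = 0.42) and rho = 0.27 (permutation p = 0.14, adjusted p = 0.42) within groups. The other 10 pairs had r between 0.01 and 0.26, and none of them passed.

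**Figure D5:**
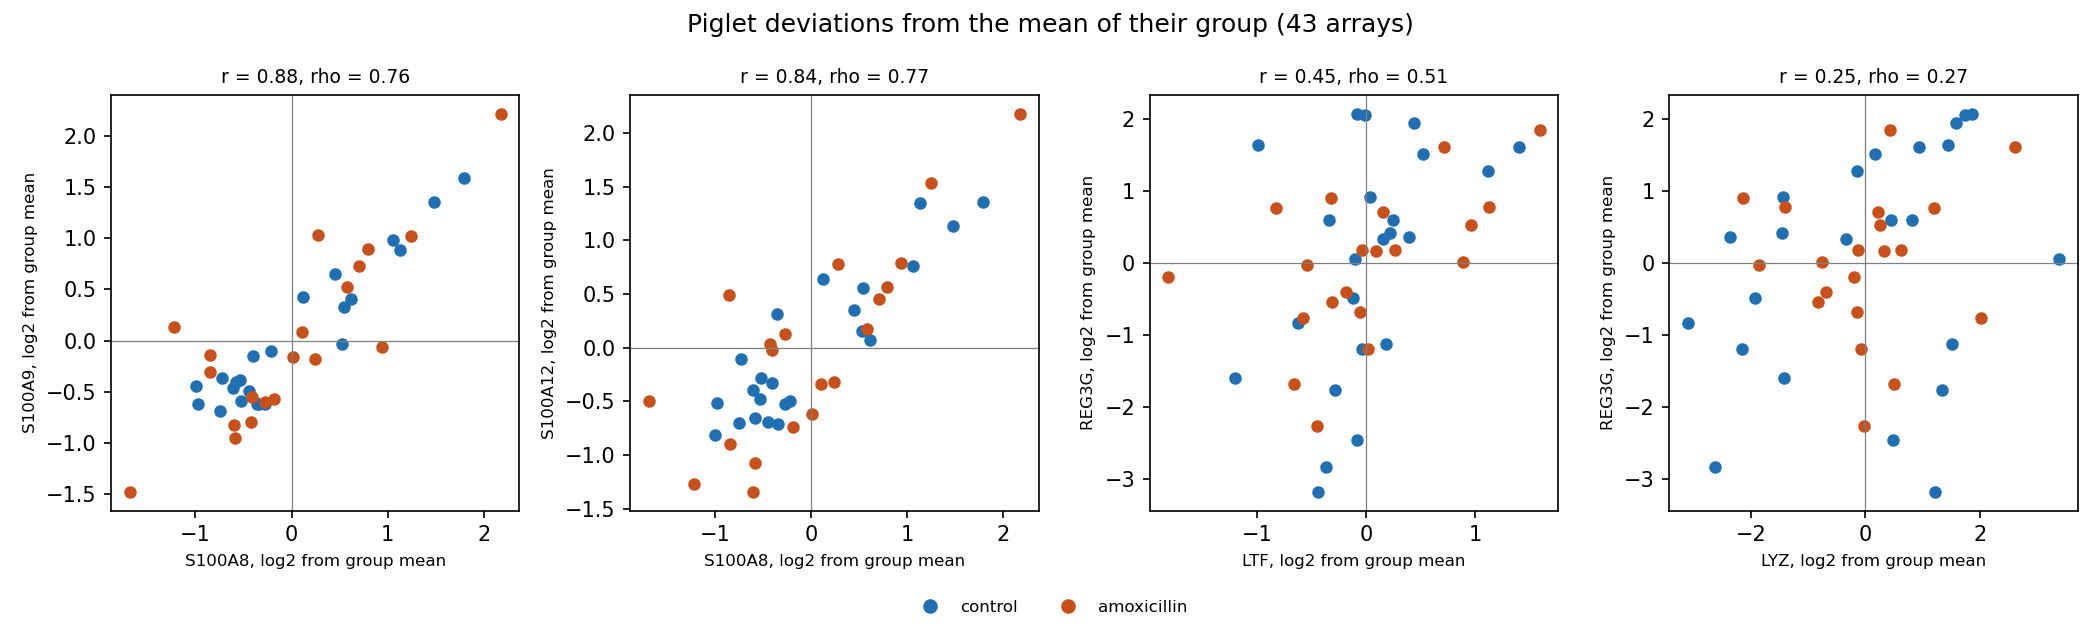
Deviation of each of the 43 piglets from its group mean, in log2 units, for S100A9 and S100A12 against S100A8, REG3G against LTF, and REG3G against LYZ, control in blue and amoxicillin in orange. The S100 genes lie along a line, with Pearson's r of 0.88 and 0.84, and LYZ and REG3G form a broad cloud at 0.25.

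Neutrophil genes were sparse on the array. Of 20 listed neutrophil markers 4 had a probe, and only FCGR3A, MMP9 and SELP passed the dark spot filter. SELP, kept on the list as it was written, encodes P-selectin of platelets and endothelium and does not mark neutrophils. The summed log2 level of the 4 lay between 11.89 and 14.31 over all arrays, with medians of 12.71 at day 1, 12.52 at day 7, 12.998 at weaning, 12.75 at 4 d and 12.76 at 28 d postweaning, and each of the 4 was well above background on at least 37 arrays. MPO, ELANE, CXCR2 and CSF3R, which define neutrophils more closely, had no spot assigned to a RefSeq transcript. In the 5 piglets with the highest S100A8, NCF1, a subunit of the phagocyte NADPH oxidase, deviated from its group mean by between -0.38 and 1.51 and was above it in 4. MMP9, a protease of neutrophil granules, deviated by between -1.298 and 0.85 in the same 5 piglets and was above its group mean in 1 of them. FCGR3A deviated by between -0.66 and 0.52 and SELP by between -0.82 and 1.35. Over all 43 arrays the deviations of NCF1 correlated with those of S100A8, S100A9 and S100A12 at r = 0.40, 0.35 and 0.32. For FCGR3A, MMP9 and SELP these r lay between -0.06 and 0.17. No p was computed for them. The part of neutrophil number in the S100 levels was not tested.

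Of 7 monocyte and macrophage markers tested, 5 rose from day 1 to day 7, where 2.01% of all genes were higher, and 1 rose to weaning. From weaning to 4 d postweaning 3 rose, where 6.19% of all genes were higher, and none fell at any of these steps. Without the 2 weaning piglets rich in B cell genes none rose to weaning. The share of all genes that rose at this step is not given, with or without these 2 piglets. The median summed log2 level of the 9 with a probe was 14.82 at day 1, 15.89 at day 7 and 15.81 at weaning, where S100A8 had medians of 7.85, 7.44 and 6.48. From day 7 to weaning the median difference of the 7 was -0.28, against 0.01 over all genes. The part of monocyte number in the S100 levels was not tested.

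Genes whose level over the 43 arrays was most like that of a member were named from 1889 genes with a symbol for LYZ and REG3G and from 2485 for the others. For LYZ these were C5 (r = 0.76), a complement component, BPI (r = 0.72), which encodes a protein that binds bacterial endotoxin, and CCL28 (r = 0.71), a chemokine of mucosal epithelium. For REG3G they were TPM4 (r = 0.57), CFB (r = 0.55), a factor of the alternative complement pathway, and PSME3 (r = 0.55). For each S100 gene the other 2 came first, with r from 0.82 to 0.90, followed by DHRS7 for S100A8 (r = 0.77) and by SELENOF for S100A9 (r = 0.66) and S100A12 (r = 0.71). For LTF they were SAG (r = 0.59), DLL4 (r = 0.50) and HP (r = 0.46), the last encoding haptoglobin. These values are descriptions over arrays that share ages and slides.

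Other antimicrobial effectors were counted by step. Of 67 listed besides the members 30 had a probe and 18 were tested. These 18 passed the dark spot filter, which lets in a gene through any 1 group in which it is bright. Counts without that filter are not given. From day 1 to day 7, 1 rose (2.01% of all genes), and from day 7 to weaning 2 rose and 2 fell (5.78% of all genes were lower). From weaning to 4 d postweaning 7 rose and 1 fell (6.19% of all genes were higher), with a median difference of 0.57 over the 18 against -0.03 over all genes. From 4 d to 28 d postweaning 1 fell (5.43% of all genes changed in either direction). Without the 2 weaning piglets rich in B cell genes none rose and 1 fell between day 7 and weaning, and 5 rose and 1 fell between weaning and 4 d postweaning. The shares over all genes in that fit are not given. Also not given are the share that rose to weaning and the share that fell after it, so these counts have no background beside them.

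The 4 effectors with the clearest course by age were PI3, HAMP, NPG4 and PGLYRP2. PI3, which encodes the protease inhibitor elafin, rose by 2.97 from day 7 to weaning (SE 0.98, adjusted p = 0.0438). HAMP, which encodes the iron hormone hepcidin, rose by 0.77 to weaning (adjusted p = 0.0197), rose by a further 1.02 to 4 d postweaning (adjusted p = 0.00286) and fell by 0.91 to 28 d (adjusted p = 0.0161). The lowest HAMP value was under the filter cut of 7.68 at every age, and the highest was 6.77 at day 7 and 8.85 at 4 d postweaning. PI3 ran from 4.99 to 9.03 at day 7 and was above that level on every array at 28 d postweaning only. Both genes entered the test through groups in which they were bright, and no fit without a filter is given for them. NPG4, a protegrin of pig neutrophils, fell by 1.57 from day 7 to weaning (SE 0.37, adjusted p = 0.0061), the same step at which S100A8 fell. Of the listed neutrophil genes tested, FCGR3A (0.03) and MMP9 (0.36) were not called at that step, and SELP was lower (-1.12, adjusted p = 0.0335). PGLYRP2, an amidase that cuts peptidoglycan, fell by 1.27 from weaning to 4 d postweaning (adjusted p = 0.00832). Without the 2 weaning piglets rich in B cell genes the weaning steps of PI3 (2.08, adjusted p = 0.239) and HAMP (0.49, adjusted p = 0.184) were not called, while those of NPG4 at weaning (-1.61, adjusted p = 0.0174) and of HAMP and PGLYRP2 after it were. No listed effector was called in a comparison of arms, but PGLYRP3, another peptidoglycan recognition gene, missed only the fold threshold at weaning (1.40 higher in amoxicillin piglets, SE 0.45, adjusted p = 0.0452). The lowest PGLYRP3 value was under 7.68 at every age, so this gene too entered the test through a group in which it was bright. The share of all genes that passed at weaning by the adjusted p alone is not given.

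Of 16 other S100 genes listed, 5 had a probe, and all were tested. S100A16 rose by 1.05 from weaning to 4 d postweaning (SE 0.17, adjusted p = 0.000189), and no other step of these 5 was called. S100A6 differed between ages in control and amoxicillin piglets (adjusted p = 0.0383 and 0.0296), and S100A14 did in control piglets (adjusted p = 0.027), where 30.5% and 47.0% of all genes did. They went from day 1 to day 7 by -1.20 and -0.82 (adjusted p = 0.0808 and 0.0899).

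Sensing and induction genes, the receptors and signalling proteins through which microbes raise antimicrobial genes, had 26 of 34 members with a probe and 11 tested. NFKBIA, the inhibitor of NF-kappaB, rose by 1.33 from day 7 to weaning (SE 0.31, adjusted p = 0.00567) and fell by 1.00 to 4 d postweaning (SE 0.32, adjusted p = 0.0329), the reverse of LYZ and REG3G. Without the 2 weaning piglets rich in B cell genes the rise of NFKBIA was still called (1.24, adjusted p = 0.0328) and its fall was not (-0.90, adjusted p = 0.0758). LY96, which presents endotoxin to its receptor, was then called higher at 4 d postweaning than at weaning (0.79, adjusted p = 0.017), and CXCL8, a chemokine for neutrophils, lower at 28 d than at 4 d postweaning (-1.11, adjusted p = 0.04). TLR3, LY96 and CXCL8 differed over the ages as well (adjusted p = 0.00187, 0.0133 and 0.0321 over both arms together) with no single step called on all 43 arrays. None of the 5 other S100 genes or the 11 sensing genes was called in a comparison of arms. TLR1 (1.43, adjusted p = 0.0242) and NFKB1 (1.13, adjusted p = 0.0304) were higher in amoxicillin piglets at weaning by the adjusted p and missed only the fold threshold of 1.5. In limma 2839 of the 12771 genes had an unadjusted p under 0.05 in this comparison, and 3.41% met the full rule. The share that passed by the adjusted p alone, as TLR1 and NFKB1 did, is not given. The groups held 3 control and 4 amoxicillin piglets on separate slides, each with 1 rich in B cell genes. No fit without these 2 piglets is given for TLR1 and NFKB1.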

How the data were processed

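Jejunal RNA of 43 piglets was labelled with cyanine 3 and hybridized to 1-color Agilent arrays by the authors, who deposited scanner files (Feature Extraction 10.7.3.1, per the file headers) with the linear intensity, local background and flags of each spot, and a table of normalized log2 values. The submitters' processing notes name R 3.0.2 and limma. Following the study's methods, the median intensity was background corrected (normexp, offset 1) and quantile normalized. Outlier spots (45 to 375 per array, none of a member) were left out, and values of all probes assigned to the same accession were averaged. Genes were kept where all arrays of at least 1 group exceeded 1.1 times the brightest dark spot on the log2 scale, a level of 7.68. For probes with 1 spot the resulting values matched the authors' deposited log2 table. LTF, S100A8, S100A9 and S100A12 failed this filter and were tested with a filter on spots well above background, a choice made after seeing the data.

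A limma 3.58.1 model (R 4.3.3) with 1 mean per arm and age was fitted across all genes kept, with Benjamini-Hochberg adjustment within each comparison over all of them. Comparisons of arms at an age also needed a log2 difference beyond 1.5. Dixon's test was applied to groups of 4 to 6 piglets. Intervals are 95% intervals of the moderated fit. The code was tested on simulated data. Alternatives were another offset, 75th percentile scaling, the processed signal, other filters, flagged spots kept, the deposited table, slide and piglet number as blocks, other fold thresholds, each age alone and each array left out. Added after seeing the data were fits on single probes, without the 2 arrays with the fewest spots well above background, and without the 2 weaning arrays with the highest B cell genes. The number of arrays limits the precision. A p-value of the limma fit sets a difference against the spread between piglets of a group, moderated over genes. For comparisons of arms it does not separate slide from arm. Every member was described. Of the listed genes, those called in a comparison of arms and the 4 with the largest F over ages in each of 3 lists were to be named, and for each member the 3 genes with a symbol of highest correlation. Genes outside this rule, such as B cell and neutrophil markers of the 2 and 5 arrays that stood out, were chosen after their values were seen. The members and lists were chosen with earlier results of these data known. A few marker genes are not reported here.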

Additional observations from a re-analysis of the deposited data

Results flagged for a closer look

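In 8 groups of 4 to 6 piglets and 6 members, 48 sets of values, 4 had an extreme piglet by Dixon's test. Chance flags about 1 in 20 such sets. S100A8 in control piglet 22 at day 7 was at 9.54 against 7.02 to 7.87 in the other 5. REG3G was low in 3 piglets, at 12.61 in control piglet 29 at 4 d postweaning against 15.40 to 15.98 in the others, at 15.28 in amoxicillin piglet 4 at day 7 against 15.98 to 16.00, and at 12.97 in amoxicillin piglet 33 at 4 d postweaning against 15.93 to 16.00. In the latter 2 groups the other 3 arrays were all saturated, so their true range is wider than measured. The flags of S100A8 and of control piglet 29 were made under all 5 alternative settings tried for them, and the other 2 REG3G flags were not made with 75th percentile scaling of the normexp values or of the processed signal. S100A9 in amoxicillin piglet 39 at 28 d postweaning was extreme only with 75th percentile scaling of the normexp values, and LTF in amoxicillin piglet 18 at day 1 and in control piglet 10 at 4 d postweaning only with that of the processed signal.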

How the results depend on the processing

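Of LYZ and REG3G, 5 of 8 steps between ages, 1 of 2 differences between ages in control piglets and 2 of 2 in amoxicillin piglets passed the test. No comparison of arms, at an age or over the ages, and no change of that comparison with age passed under any setting run for it. With the slide as a fixed block the counts were 2, 0 and 1, and with the slide as a random block the control count was 0. Scaling the normexp values to a common 75th percentile also gave a control count of 0 (adjusted p = 0.05002). The filter on spots well above background, which adds the other 4 members, gave a control count of 3. Without the 2 weaning piglets rich in B cell genes, chosen after seeing the data, 3 steps passed. Leaving out 1 array gave 3 to 5 steps and 0 to 1 differences in control piglets. The replicate block on piglet number gave 0 steps, 0 differences in control and 0 in amoxicillin piglets. It reversed the LYZ step from day 7 to weaning (1.72) and the REG3G step from weaning to 4 d postweaning (-1.02). Only number 24 occurs at both day 7 and weaning, in an amoxicillin and a control piglet. Only number 29 occurs at both weaning and 4 d postweaning, again in an amoxicillin and a control piglet. In this fit each of these steps hangs on that 1 pair of animals from opposite arms, so the fit cannot decide them. Piglets of both arms with the same number at an age were different animals. The deviations of the 10 such pairs correlated at -0.27 to 0.44, above 0.1 in 4 of them. These pairs join the arms at a single age, so they cannot show whether a number links arrays within an arm, which was not tested. With 75th percentile scaling 3 of the 4 called pairs of members remained. Saturation limits LYZ and REG3G at the top, and background limits the S100 genes at weaning and at 28 d postweaning.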
